A study of Mus musculus with 12 samples.

Results

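Acod1, Arg1, Nos2, Ass1, Odc1, Slc7a2, Chil3, Retnla and Mrc1 form a set of 9 genes of arginine and itaconate metabolism and of myeloid cell polarization. They were taken by name, with earlier results of these data known: each symbol was looked up by its Ensembl gene identifier in the gene tables of 12 mouse ear skin libraries, and all 9 were found among 55416 identifiers. All 9 also passed the filter on low counts, and are described here as 9 of the 17130 genes tested.

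The libraries are bulk mRNA sequencing of C57BL/6 ear skin at day 6, from mice 8 to 12 weeks old, in 4 groups of 3. IMQ_GW3965 ears were treated with imiquimod and the mice received 20 mg/kg GW3965, which activates LXR, the liver X receptors. IMQ_Troglitazone ears were treated with imiquimod and the mice received troglitazone, an agonist of the nuclear receptor PPARγ, at 150 mg/kg. IMQ_Veh ears were treated with imiquimod and the mice received the DMSO vehicle. UTX_Veh mice were given the vehicle and their labels name no imiquimod; the labels do not spell out UTX. Imiquimod activates Toll-like receptor 7 and, painted on mouse skin, is a common model of psoriasis-like inflammation; here it was 20.8 mg of Aldara cream at 5% imiquimod, spread every day on the back of the ears. Agonist or vehicle went into the peritoneum once a day from day 3, and skin was taken 1 day after the last cream. All 4 groups share the strain, and the labels name no genetic alteration in any of them. The labels do not say whether the 3 libraries of a group are separate animals, so the p-values reflect variation between libraries, which may be technical.

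The genes belong to a few connected reactions. Arginine enters cells through cationic amino acid transporters such as Slc7a2; arginase 1 (Arg1) splits it into urea and ornithine, from which ornithine decarboxylase (Odc1) starts polyamine synthesis, while the inducible nitric oxide synthase (Nos2) turns it into nitric oxide and citrulline, which argininosuccinate synthase (Ass1) and its partner Asl return to arginine. Acod1 makes itaconate from a citrate cycle intermediate in activated macrophages and neutrophils, and is a hallmark of Toll-like receptor stimulation. Nos2 and Arg1 are the classical pair used to mark the opposed states of mouse macrophages, with Chil3 (Ym1, a chitinase-like protein), Retnla (RELMα, a secreted resistin-like protein) and the mannose receptor Mrc1 (CD206) as further marks of the state induced by interleukin 4 and interleukin 13. Several of them are not restricted to myeloid cells: keratinocytes also express Arg1, Ass1 and Odc1.

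On the GRCm38 build, per GENCODE M21, all 9 are protein-coding genes. Acod1 (ENSMUSG00000022126) lies at chr14:103046977-103056573 on the plus strand and Arg1 (ENSMUSG00000019987) at chr10:24915221-24927484 on the minus strand. Nos2 (ENSMUSG00000020826) lies at chr11:78920787-78960254, Ass1 (ENSMUSG00000076441) at chr2:31470207-31520672, Odc1 (ENSMUSG00000011179) at chr12:17544794-17551505 and Slc7a2 (ENSMUSG00000031596) at chr8:40862396-40922308, all on the plus strand. Chil3 (ENSMUSG00000040809) lies at chr3:106147554-106167564 on the minus strand, Retnla (ENSMUSG00000061100) at chr16:48842551-48844461 on the plus strand and Mrc1 (ENSMUSG00000026712) at chr2:14229392-14332057 on the plus strand. The tables summarise whole genes, so exons and transcripts are not resolved.

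Promoter sequences of 6 of the 9 genes were matched in RefSeq (build GRCm38.p6, 250 bases before to 50 bases after the annotated start): Acod1, Ass1, Chil3, Mrc1, Odc1 and Retnla; Arg1, Nos2 and Slc7a2 are named only. The 3 printed here belong to the genes with the largest differences between IMQ_Veh and UTX_Veh among those 6: Acod1 and Chil3, which were higher, and Retnla, which was lower. All are read 5′ to 3′ on the strand of the gene, and capitals mark matches to the motifs described after them. Acod1 is chr14:103046762-103047061 on the plus strand, Chil3 is chr3:106167515-106167814 on the minus strand and Retnla is chr16:48842359-48842658 on the plus strand.
Acod1: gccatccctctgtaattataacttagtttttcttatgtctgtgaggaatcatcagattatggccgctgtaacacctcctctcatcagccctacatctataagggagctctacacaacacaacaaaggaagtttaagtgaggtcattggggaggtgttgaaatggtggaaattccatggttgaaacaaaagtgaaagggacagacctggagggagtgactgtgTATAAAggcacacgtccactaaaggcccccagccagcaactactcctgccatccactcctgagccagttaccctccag
Chil3: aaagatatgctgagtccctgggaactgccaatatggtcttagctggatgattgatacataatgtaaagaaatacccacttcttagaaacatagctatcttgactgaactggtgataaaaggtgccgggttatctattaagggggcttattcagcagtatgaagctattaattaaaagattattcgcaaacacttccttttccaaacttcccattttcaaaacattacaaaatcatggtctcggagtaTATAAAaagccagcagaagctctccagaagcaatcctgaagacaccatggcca
Retnla: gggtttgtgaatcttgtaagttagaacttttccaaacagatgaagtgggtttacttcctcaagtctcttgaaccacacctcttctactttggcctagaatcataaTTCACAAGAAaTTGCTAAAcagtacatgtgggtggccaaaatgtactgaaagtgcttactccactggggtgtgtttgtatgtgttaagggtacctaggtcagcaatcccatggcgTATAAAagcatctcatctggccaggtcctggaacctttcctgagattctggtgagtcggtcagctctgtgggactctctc

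A TATAAA element, searched like all motifs on both strands, starts 28 bases before the RefSeq start in Acod1, 3 in Chil3 and 30 in Retnla. It is held by 13.6% of the 32817 promoters of the same length in the table. The RefSeq starts of Acod1 and Retnla lie downstream of the GENCODE starts given above. Their TATAAA elements thus lie inside the gene by the GENCODE coordinates. Retnla also holds TTCACAAGAA, a match to TTC and GAA with 4 bases between them, the spacing bound by STAT6, 145 bases before the start (6.94% of promoters hold such a match). It is followed, with no overlap, by TTGCTAAA, a match to the C/EBP-like TTGCNNAA, 134 bases before the start (10.8% of promoters). Not found in the 6 windows were an NF-κB-like GGGA and TTCC with 2 bases between them (1.47% of promoters), an interferon-response-like repeat of GAAA with 2 bases between the copies (3.43%) and the AP-1 site TGANTCA (7.81%). The same holds for a repeat of AGGTCA with 4 bases between the copies, the LXR form (0.0152% of promoters), and with 1 base between them, the PPAR form (0.0396%). These matches describe letters in a short window and say nothing of binding. The search allowed no mismatch. The Acod1 window holds tggaaattcc, which differs from the NF-κB-like pattern only in its first base.

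The libraries held 18242074 to 25641602 expected counts each. Their file names carry a field, L001 or L009, that is called the lane here. In replicate order it is L009, L001 and L009 in IMQ_Veh, and L001, L009 and L001 in both agonist groups. In UTX_Veh it is L001, L001 and L009. IMQ_GW3965 replicate 3 stands apart in that 11.624% of its counts fall on 1 unnamed feature (ENSMUSG00000119584), which takes 0.045% to 0.138% elsewhere, and IMQ_Veh replicate 3 has higher summed skeletal muscle markers (5451 CPM) than the other IMQ_Veh libraries (1422 and 1469 CPM). Levels of a gene are given as CPM, counts scaled to library size with edgeR's TMM factors, and levels of different genes are compared only in the deposited TPM, which also divide by transcript length. Expected counts were whole numbers in all 12 libraries for Acod1, Arg1, Nos2, Slc7a2, Retnla and Mrc1, but in 10 libraries for Chil3, 1 for Ass1 and 0 for Odc1. RSEM divided some reads of those last 3 genes with other features, and their values depend on that division. An RNA partner overlaps 2 of the genes on the same strand, Gm22748 in Odc1 and Mir511 in Mrc1.

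**Figure D1:**
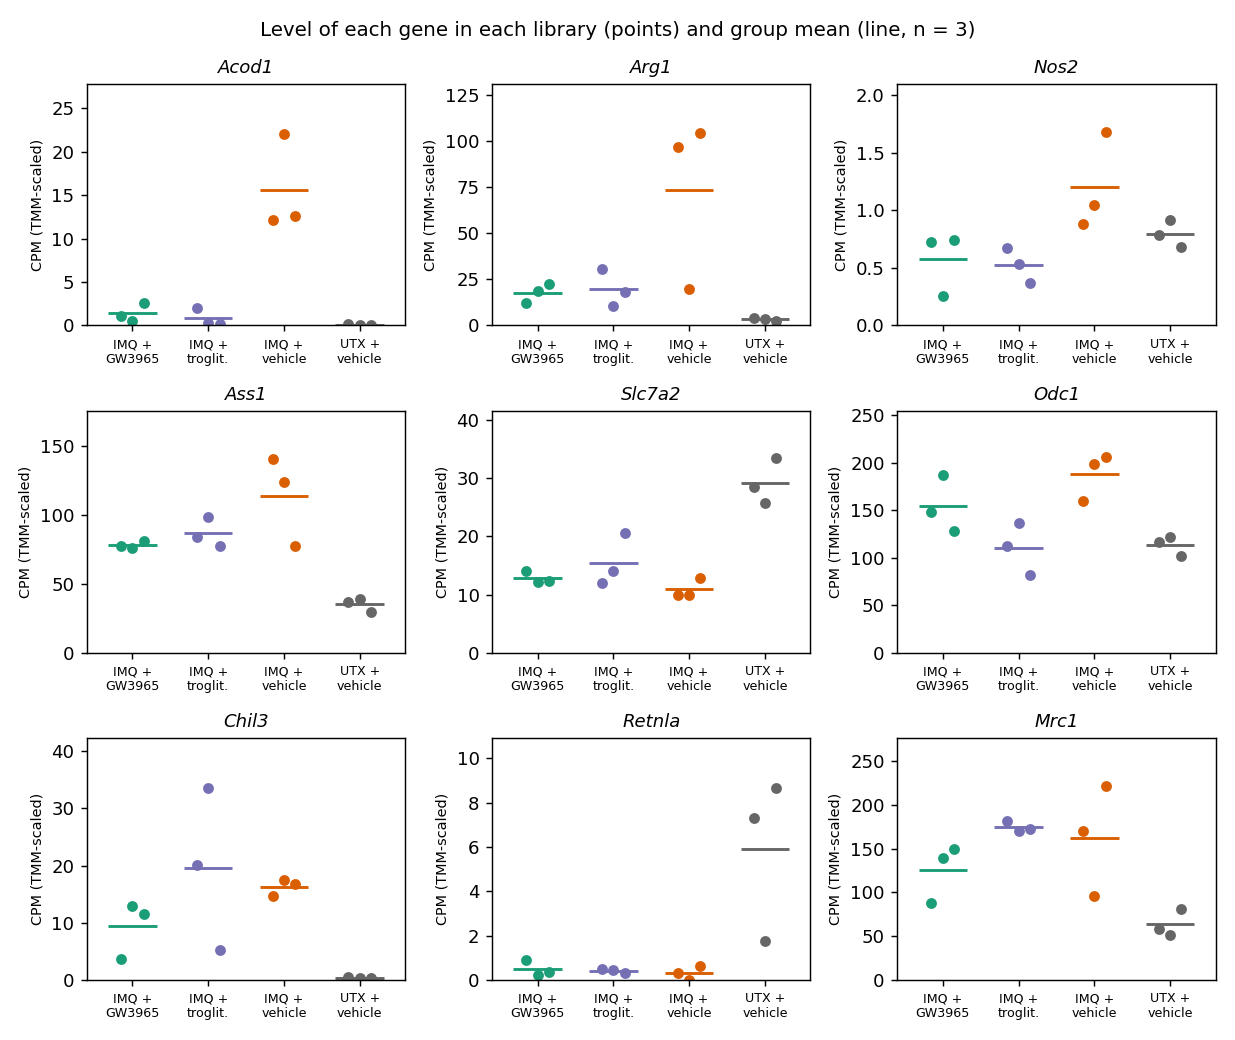
Level of each of the 9 genes (y axis, CPM after TMM scaling, from 0) in each library, with groups along the x axis; points are the 3 libraries of a group and the line is their mean. Acod1 is at 12.1 to 22.1 CPM in IMQ_Veh and at most 2.64 CPM elsewhere, while Retnla and Slc7a2 are highest in UTX_Veh.

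Per length, the set ran from traces to abundant transcripts, and the order of the genes differed between inflamed and imiquimod-free skin. In IMQ_Veh the highest was Odc1 (131 ± 23.5 TPM, SD, n = 3), followed by Ass1 (95.8 ± 24.4), Arg1 (73.9 ± 46.7), Mrc1 (41.9 ± 15.3), Chil3 (14.7 ± 1.98), Acod1 (7.84 ± 3.08), Slc7a2 (1.78 ± 0.312), Retnla (0.96 ± 0.997) and Nos2 (0.41 ± 0.147 TPM). In UTX_Veh, Odc1 (118 ± 11.9 TPM) and Ass1 (43.8 ± 4.69) again came first, but Retnla (26.4 ± 16.7) and Mrc1 (22.5 ± 5.98) came next, ahead of Slc7a2 (7.53 ± 1.13) and Arg1 (4.61 ± 1.13), with Nos2 (0.61 ± 0.3), Chil3 (0.483 ± 0.176) and Acod1 (0.0467 ± 0.0808 TPM) at the bottom. Arg1 thus stood above Nos2 in every group, at 16.8 ± 3.54 against 0.187 ± 0.085 TPM in IMQ_GW3965 and 24.1 ± 11.7 against 0.207 ± 0.0611 TPM in IMQ_Troglitazone. The rank of neighbours with overlapping libraries, such as Arg1 and Ass1 in IMQ_Veh, is not resolved at 3 libraries a group.

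Acod1, the itaconate-forming enzyme, was highest in IMQ_Veh by a wide margin. It had 1.08, 0.468 and 2.64 CPM in the IMQ_GW3965 libraries, 2.03, 0.339 and 0.123 CPM in IMQ_Troglitazone, 12.1, 22.1 and 12.6 CPM in IMQ_Veh, against 0.197, 0 and 0 CPM in UTX_Veh. The 3 IMQ_Veh libraries lie above all 9 others, and the IMQ_GW3965 and IMQ_Troglitazone libraries overlap each other. The UTX_Veh level rests on 5 counts in replicate 1 and none in replicates 2 and 3, where a count of 0 allows up to 0.125 and 0.128 CPM (3 counts, for counting error only). Against UTX_Veh, Acod1 rose in IMQ_Veh by log2 7.72 ± 1.07 (SE; edgeR quasi-likelihood adjusted p = 9.13e-05). The 95% interval of that difference, 5.25 to 10.19, is wide. Without UTX_Veh replicate 1 the group is at 0 and the fitted value of 11.38 (adjusted p = 0.000741) depends on the prior count.

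Arg1, the arginase of the urea cycle and of alternatively activated macrophages, was also highest in IMQ_Veh, but unevenly. It had 12.2, 18.7 and 22.6 CPM in IMQ_GW3965, 30.6, 10.5 and 18.1 CPM in IMQ_Troglitazone, 96.5, 19.7 and 104 CPM in IMQ_Veh, against 3.77, 3.64 and 2.39 CPM in UTX_Veh. IMQ_Veh replicate 2, at 19.7 CPM, lies within the range of both agonist groups, while every imiquimod library lies above every UTX_Veh library. Arg1 rose in IMQ_Veh against UTX_Veh by log2 4.48 ± 0.61 (edgeR adjusted p = 8.28e-05), and the difference stayed between 4.10 and 4.88 in all 16 alternatives. Arg2, the mitochondrial arginase, did not pass the test: IMQ_Veh libraries averaged 4.64 ± 0.183 CPM, against 3.79 ± 1.13 CPM for UTX_Veh libraries (log2 0.29 ± 0.22, edgeR adjusted p = 0.265), and its expected counts were fractional in all 12 libraries. The ratio of Arg1 to Arg2 in TPM was 3.19, 6.34 and 7.01 in IMQ_GW3965, 10.6, 4.8 and 5.83 in IMQ_Troglitazone, 21.9, 4.54 and 22.1 in IMQ_Veh and 1.26, 1.09 and 0.451 in UTX_Veh, again with IMQ_Veh replicate 2 among the agonist libraries.

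Odc1, the first enzyme of polyamine synthesis, was abundant everywhere. It had 148, 187 and 128 CPM in IMQ_GW3965, 112, 137 and 82.0 CPM in IMQ_Troglitazone, 160, 199 and 206 CPM in IMQ_Veh, against 116, 122 and 102 CPM in UTX_Veh. IMQ_Veh lies above UTX_Veh and above IMQ_Troglitazone with no overlap, whereas IMQ_GW3965 overlaps IMQ_Veh. Odc1 rose in IMQ_Veh against UTX_Veh by log2 0.74 ± 0.18 (edgeR adjusted p = 0.00464). In the deposited TPM the groups overlap, at 105, 138 and 151 in IMQ_Veh and 121, 127 and 105 in UTX_Veh.

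Slc7a2 and Slc7a1, cationic amino acid transporters of the same family, went in opposite directions. Slc7a2 had 14.0, 12.2 and 12.4 CPM in IMQ_GW3965, 11.9, 14.0 and 20.6 CPM in IMQ_Troglitazone, 9.91, 10 and 12.9 CPM in IMQ_Veh, against 28.5, 25.7 and 33.5 CPM in UTX_Veh. All 9 imiquimod libraries lie below all UTX_Veh libraries, and the 3 imiquimod groups overlap one another. Slc7a2 fell in IMQ_Veh against UTX_Veh by 1.42 ± 0.20 on the log2 scale (edgeR adjusted p = 8.70e-05). Slc7a1 averaged 109 ± 14.8 CPM across IMQ_Veh libraries, against 40.6 ± 3.2 CPM across UTX_Veh libraries, a rise of log2 1.42 ± 0.15 (edgeR adjusted p = 1.44e-05). In TPM, Slc7a1 stood at 19.1 ± 2.14 in IMQ_Veh and 10.4 ± 0.559 in UTX_Veh, above Slc7a2 in each group.

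On the nitric oxide side, Nos2 was barely detected. It had 5 to 32 expected counts per library: 0.723, 0.26 and 0.743 CPM in IMQ_GW3965, 0.677, 0.533 and 0.369 CPM in IMQ_Troglitazone, 0.882, 1.05 and 1.68 CPM in IMQ_Veh, against 0.786, 0.92 and 0.684 CPM in UTX_Veh. IMQ_Veh and UTX_Veh overlap, and the difference did not pass the test (log2 0.58 ± 0.38, edgeR adjusted p = 0.195). In TPM its order was the other way, at 0.25, 0.44 and 0.54 in IMQ_Veh and 0.5, 0.95 and 0.38 in UTX_Veh. Gch1, which makes the cofactor of nitric oxide synthases, was called with a rise of log2 2.17 ± 0.19 in IMQ_Veh (26 ± 4.4 CPM) against UTX_Veh (5.74 ± 1.05 CPM; edgeR adjusted p = 4.47e-06).

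Ass1, which rebuilds arginine from citrulline, had 77.9, 75.8 and 81.2 CPM in IMQ_GW3965, 84, 98.5 and 77.6 CPM in IMQ_Troglitazone, 141, 124 and 77.6 CPM in IMQ_Veh, against 36.9, 39.1 and 29.6 CPM in UTX_Veh. All imiquimod libraries lie above UTX_Veh; within imiquimod, IMQ_Veh replicate 3 lies with the agonist libraries and not with the other IMQ_Veh libraries. Ass1 rose in IMQ_Veh against UTX_Veh by log2 1.69 ± 0.19 (edgeR adjusted p = 2.13e-05). Its partner Asl was called with a smaller rise in counts, of log2 0.53 ± 0.10 (19.1 ± 1.39 CPM in IMQ_Veh, against 13.2 ± 0.745 CPM in UTX_Veh; edgeR adjusted p = 0.000995). In the deposited TPM, Asl had 15.3, 15.1 and 13.6 in IMQ_Veh, against 14.9, 15.3 and 16.7 in UTX_Veh, so the groups overlap there and the mean is lower in IMQ_Veh. The TPM ratio of Ass1 to Asl was 4.04, 4.37 and 4.33 in IMQ_GW3965, 4.41, 5.19 and 4.91 in IMQ_Troglitazone, 7.39, 7.05 and 5.00 in IMQ_Veh and 3.12, 3.05 and 2.30 in UTX_Veh.

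The 3 marks of alternative activation did not move as a unit. Chil3 had 3.57, 13 and 11.6 CPM in IMQ_GW3965, 20.1, 33.6 and 5.25 CPM in IMQ_Troglitazone, 14.7, 17.5 and 16.7 CPM in IMQ_Veh, against 0.511, 0.334 and 0.256 CPM in UTX_Veh. Every imiquimod library lies above UTX_Veh, IMQ_Troglitazone spans the widest range, and IMQ_GW3965 lies wholly below IMQ_Veh. Chil3 rose in IMQ_Veh against UTX_Veh by log2 5.44 ± 0.76 (edgeR adjusted p = 9.28e-05). Its paralog Chil4, also with reads shared between features, was uneven: 0, 0.104 and 0.27 CPM in IMQ_GW3965, 0, 0 and 0.328 CPM in IMQ_Troglitazone, 1.56, 0.322 and 11.9 CPM in IMQ_Veh, against 0.432, 0 and 0.0854 CPM in UTX_Veh. Chil4 was called in IMQ_Veh against UTX_Veh (log2 4.64 ± 1.34, edgeR adjusted p = 0.0101), but without IMQ_Veh replicate 3 the value was 2.33 with an adjusted p of 0.0904, without UTX_Veh replicate 1 it was 6.57 (0.0153), and with the lane as a covariate 3.84 (0.0594).

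Retnla ran the opposite way. It had 0.904, 0.208 and 0.338 CPM in IMQ_GW3965, 0.466, 0.436 and 0.287 CPM in IMQ_Troglitazone, 0.311, 0 and 0.63 CPM in IMQ_Veh, against 7.31, 1.76 and 8.67 CPM in UTX_Veh. Every imiquimod library lies below every UTX_Veh library, and UTX_Veh replicate 2 is the lowest of its group. Retnla fell in IMQ_Veh against UTX_Veh by 4.30 ± 0.81 on the log2 scale (edgeR adjusted p = 0.000765); the value was -3.68 without IMQ_Veh replicate 2, which has no count (a limit of 0.121 CPM), and -5.35 without replicate 3. Retnlg, a resistin-like gene of neutrophils, rose instead, to 3.62 ± 0.685 CPM in IMQ_Veh against 0.147 ± 0.146 CPM in UTX_Veh (log2 4.54 ± 0.83, edgeR adjusted p = 0.00063; 5.71 without UTX_Veh replicate 1).

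Mrc1, the mannose receptor of tissue macrophages, had 87.7, 139 and 150 CPM in IMQ_GW3965, 182, 170 and 173 CPM in IMQ_Troglitazone, 170, 95.7 and 222 CPM in IMQ_Veh, against 58.2, 51.0 and 81.4 CPM in UTX_Veh. In CPM all imiquimod libraries lie above UTX_Veh, and IMQ_Troglitazone is the tightest group. In TPM, IMQ_GW3965 replicate 1 (25.2) and IMQ_Veh replicate 2 (27.9) lie below UTX_Veh replicate 3 (29.1), so those groups overlap. Mrc1 rose in IMQ_Veh against UTX_Veh by log2 1.35 ± 0.28 (edgeR adjusted p = 0.0015), while Csf1r, the growth factor receptor of macrophages and monocytes, did not pass the test (125 ± 46.1 CPM in IMQ_Veh, against 100 ± 11.8 CPM in UTX_Veh; log2 0.32 ± 0.22, edgeR adjusted p = 0.225). The TPM ratio of Mrc1 to Csf1r was 0.67, 0.828 and 1 in IMQ_GW3965, 0.796, 0.905 and 0.81 in IMQ_Troglitazone, 1.03, 1.1 and 1.03 in IMQ_Veh and 0.458, 0.41 and 0.534 in UTX_Veh. Taking the ratio brought IMQ_Veh replicate 2, the lowest of its group in both genes, level with replicates 1 and 3.

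**Figure D2:**
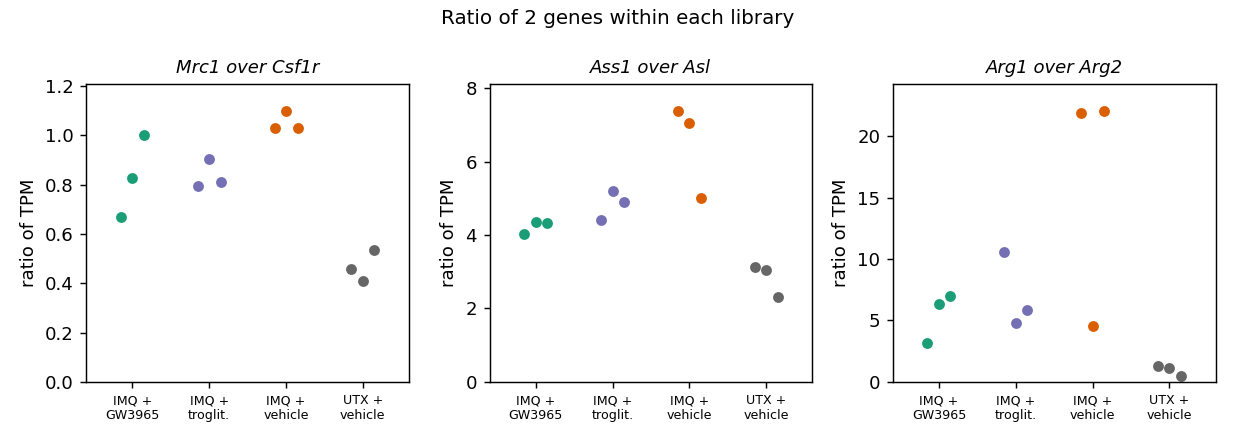
Ratios of TPM values of paired genes within each library (y axes, no unit, from 0), by group along the x axis; each point is a library. Mrc1 over Csf1r is 1.03 to 1.1 in IMQ_Veh and 0.41 to 0.534 in UTX_Veh, Ass1 over Asl is 5.00 to 7.39 in IMQ_Veh, and Arg1 over Arg2 in IMQ_Veh is split between 4.54 and values near 22.1.

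The comparison of IMQ_Veh with UTX_Veh asks what the imiquimod cream did to these genes in the absence of an agonist. No cream is recorded for UTX_Veh, so imiquimod and the cream base cannot be told apart. Acod1, Chil3, Arg1, Ass1, Mrc1 and Odc1 rose, in that order of size, and Retnla and Slc7a2 fell; Nos2 alone did not pass. The 8 called genes are to be read beside a broad response: 61.9% of all 17130 genes were called, 33.0% higher and 28.9% lower (5646 and 4951 genes with TMM, 4804 and 5867 with upper-quartile scaling). The groups did not overlap for the same number, 8 of the 9, and for 66.8% of all genes (34.7% higher and 32.1% lower). The median log2 difference was 1.35 over the 9 genes and 0.01 over all genes tested. All 8 stayed called in each of the 16 alternatives.

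Counts of other genes of the same reactions stand beside 33.0% of all genes called higher and 28.9% called lower. Of 33 genes of arginine, nitric oxide and polyamine metabolism outside the 9, 18 rose and 5 fell (median log2 0.42). Spermine oxidase (Smox) rose by log2 3.24 ± 0.23 (edgeR adjusted p = 1.32e-06) and the neuronal nitric oxide synthase Nos1 fell by 2.11 ± 0.39 (edgeR adjusted p = 0.000723). The Nos1 value was -2.72 without IMQ_Veh replicate 3 and IMQ_GW3965 replicate 3 together. All 10 skeletal muscle markers also fell in this comparison, and their part in the Nos1 value was not tested. Of 26 genes of itaconate handling, the citrate cycle and the NRF2 oxidant response, 12 rose and 3 fell (median 0.22), among them the cystine transporter Slc7a11 at log2 7.10 ± 0.52 (edgeR adjusted p = 1.58e-06), Nfkbiz, which encodes the itaconate-sensitive regulator IκBζ, at 2.64 ± 0.26 (1.01e-05) and Nfe2l2, which encodes NRF2, at 1.51 ± 0.15 (1.03e-05). For comparison, the median over all genes tested was 0.01.

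Genes of classical and alternative activation outside the 9 are counted beside the same 33.0% higher and 28.9% lower of all genes. Of 21 tested genes of classical activation, 15 rose and none fell (median log2 1.86), with the cytokine genes Il6 at 7.01 ± 1.46 (edgeR adjusted p = 0.00145; 5.66 without IMQ_Veh replicate 3 and 7.81 without UTX_Veh replicate 1) and Il1b at 6.83 ± 0.83 (3.64e-05; 7.87 without UTX_Veh replicate 1), and the formyl peptide receptor Fpr2 at 6.61 ± 0.68 (1.24e-05; 7.46 without UTX_Veh replicate 3). Of 25 tested genes of alternative activation, 8 rose and 6 fell (median 0.15), shares near those of all genes. The 8 include Chil4, whose call was lost without IMQ_Veh replicate 3, and Retnlg, named above as a gene of neutrophils. The interleukin 4 receptor chain Il4ra, also among them, rose by log2 2.01 ± 0.30 (edgeR adjusted p = 0.000158). The difference between the lists was not tested.

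Cell type markers moved in the same libraries, and their counts stand beside 33.0% of all genes called higher and 28.9% called lower. The summed level of 16 macrophage and monocyte markers reached 767 to 1743 CPM in the IMQ_Veh libraries, against 508 to 644 CPM in UTX_Veh, and 13 of the 16 rose while 1 fell. Fcgr1, a receptor for antibodies, rose by log2 2.97 ± 0.44 and Itgam by 2.84 ± 0.33 (edgeR adjusted p = 0.000155 and 2.65e-05). The summed level of 15 neutrophil markers reached 5765 to 10105 CPM in the IMQ_Veh libraries, against 19.9 to 36.5 CPM in UTX_Veh, where Fpr1 and Ngp were at 0 in all libraries. Elane was at 0 in IMQ_Veh. The sum weights each marker by its level. In IMQ_Veh, Csf3r (36.6 ± 4.25 CPM), Clec4e (11.6 ± 1.74 CPM) and Fpr1 (3.39 ± 0.53 CPM) are small parts of it. All 9 neutrophil markers called among the 10 tested rose, led by the alarmins S100a9 at log2 10.07 ± 1.17 and S100a8 at 9.74 ± 1.04 (edgeR adjusted p = 2.69e-05 and 1.56e-05; 11.35 and 10.51 without UTX_Veh replicate 1). Keratinocyte markers summed to 55041 to 76582 CPM with IMQ_Veh, against 24310 to 28230 CPM with UTX_Veh, and skeletal muscle markers to 1422 to 5451 CPM with IMQ_Veh, against 10146 to 11635 CPM with UTX_Veh. By single genes, 8 of 12 keratinocyte markers rose and 2 fell, 2 of 12 fibroblast markers rose and 3 fell, 4 of 10 adipocyte markers fell and all 10 muscle markers fell. None of the macrophage and keratinocyte markers was at 0 in all libraries of a group. In bulk skin, more cells of a type, more RNA per cell and expression of a marker by other cells cannot be told apart. The part of these shifts in the levels of the 9 genes was not tested.

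**Figure D3:**
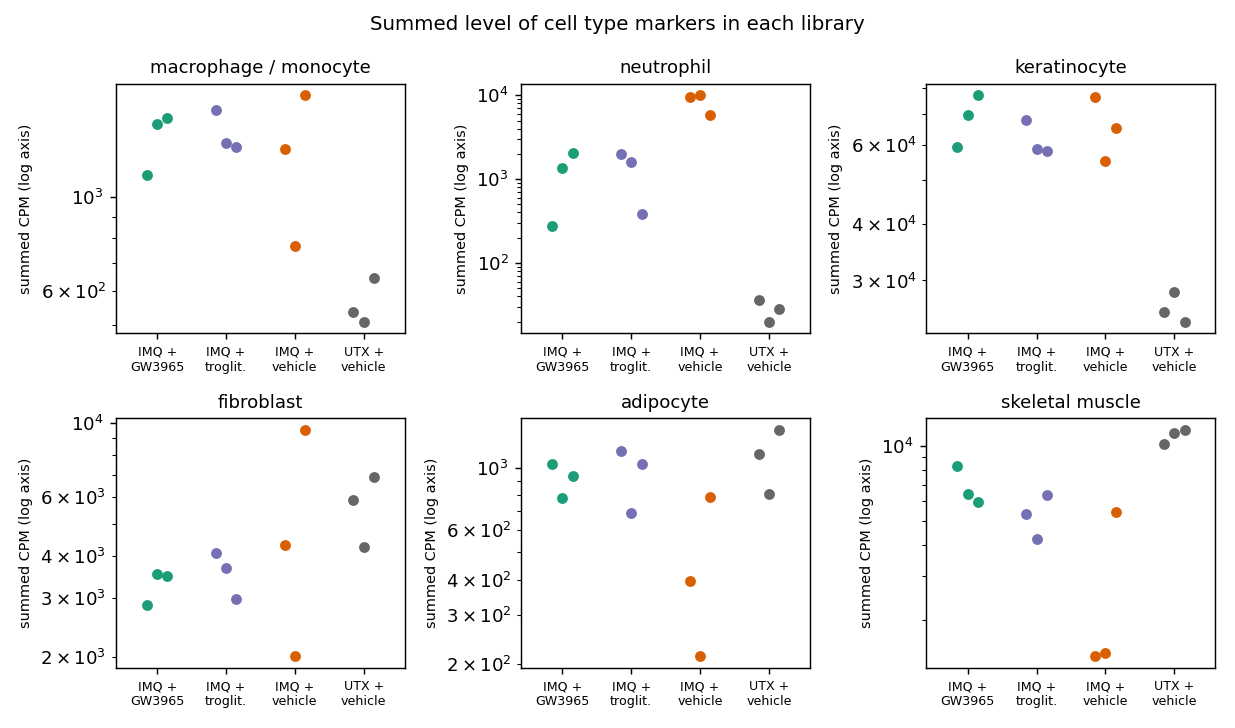
Summed CPM of marker genes (y axes, logarithmic) of 6 cell types in each library, by group along the x axis; each point is a library. The neutrophil sum is 5765 to 10105 in IMQ_Veh, 276 to 2024 in IMQ_GW3965 and 388 to 1969 in IMQ_Troglitazone, while the macrophage and monocyte sums of the 3 imiquimod groups overlap. Each sum weights its markers by their level.

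The comparison of IMQ_GW3965 with IMQ_Veh asks what the LXR agonist did in inflamed skin. Acod1 and Arg1 fell, and the remaining 7 genes did not pass the test. The 2 called genes, both lower, stand beside 6.59% of all genes called with 3.71% called higher and 2.88% lower. The median log2 difference was -0.54 over the 9 genes and -0.01 over all. The groups did not overlap for 3 of the 9 genes, Acod1, Nos2 and Chil3, all lower in IMQ_GW3965, and for 24.8% of all genes (12.0% lower).

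Acod1 averaged 1.40 ± 1.12 CPM in IMQ_GW3965 and 15.6 ± 5.65 CPM in IMQ_Veh, a fall of 3.53 ± 0.76 on the log2 scale (edgeR adjusted p = 0.0244; 95% interval -5.28 to -1.78). Each IMQ_GW3965 library was below each IMQ_Veh library. The call was lost without IMQ_Veh replicate 1 (-3.70, adjusted p = 0.0612), without IMQ_GW3965 replicate 1 (-3.38, 0.115) and without IMQ_GW3965 replicate 2 (-3.11, 0.0725), and in the fit of these 2 groups alone (0.0502), while without IMQ_GW3965 replicate 3 the value was -4.30 (0.0418). Arg1 averaged 17.8 ± 5.21 CPM in IMQ_GW3965 and 73.3 ± 46.6 CPM in IMQ_Veh, a fall of 2.04 ± 0.54 (edgeR adjusted p = 0.0449), but the groups overlap and the call held in 8 of 16 alternatives. It was lost without IMQ_Veh replicate 1 (-1.79, adjusted p = 0.138) and without IMQ_GW3965 replicate 1 (-1.83, 0.172), 2 (-2.08, 0.103) or 3 (-2.24, 0.0795). The Arg1 call was also lost with the lane as a covariate (-1.96, 0.0999) and with the replicate number as a block (-1.82, 0.0542).

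Of the genes that did not pass, Nos2 and Ass1 came closest. Nos2 stood at 0.576 ± 0.274 CPM in IMQ_GW3965 and 1.2 ± 0.421 CPM in IMQ_Veh (log2 -1.06 ± 0.40, edgeR adjusted p = 0.125). Ass1 stood at 78.3 ± 2.73 CPM in IMQ_GW3965 and 114 ± 32.6 CPM in IMQ_Veh (-0.54 ± 0.18, adjusted p = 0.0929). Ass1 was called without IMQ_Veh replicate 3, the library with high muscle markers (-0.75, adjusted p = 0.0025), and by DESeq2 (-0.55, 0.0435). The other 5 had intervals that include 0: -2.07 to 0.47 for Chil3, -0.71 to 0.13 for Odc1, -1.02 to 0.28 for Mrc1, -0.23 to 0.69 for Slc7a2 and -1.48 to 3.00 for Retnla, on the log2 scale.

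Around them, few genes of the lists were called under GW3965. The counts stand beside 3.71% of all genes called higher and 2.88% called lower. In the arginine list 2 of 33 rose and none fell: ornithine aminotransferase (Oat, log2 0.45 ± 0.11, edgeR adjusted p = 0.0328) and the transporter Slc7a6 (0.41 ± 0.11, 0.0489). The Oat call was lost without IMQ_Veh replicate 1 or 2 and without any IMQ_GW3965 library, and the Slc7a6 call without IMQ_Veh replicate 1 or 3 and without any IMQ_GW3965 library (adjusted p 0.073 to 0.119 and 0.0506 to 0.18). In the itaconate list 1 of 26 rose and 1 fell, Slc7a11 by 1.54 ± 0.39 (edgeR adjusted p = 0.0389), a call lost without IMQ_Veh replicate 1 (-1.42, 0.122) or 2 (-1.43, 0.0784) and without IMQ_GW3965 replicate 1 (-1.21, 0.132) or 2 (-1.55, 0.096). In the classical list 4 of 21 fell and none rose. Il1b fell by 2.90 ± 0.65 (edgeR adjusted p = 0.0273) and Ptgs2, the inducible cyclooxygenase, by 1.90 ± 0.35 (0.0163). Il1b lost its call without IMQ_Veh replicate 1 (-2.94, 0.0755) and without IMQ_GW3965 replicate 1 (-2.71, 0.125), 2 (-2.73, 0.0832) or 3 (-3.32, 0.051), and Ptgs2 without IMQ_GW3965 replicate 1 (-2.08, 0.0632) or 2 (-1.80, 0.0511). In the alternative list none of 25 was called by edgeR. Chil4 stood at -5.31 ± 1.51 (edgeR adjusted p = 0.0561), and was called with no filter on low counts (-5.29, 0.0157), with the replicate block (-4.83, 0.0302) and without IMQ_Veh replicate 2 (-5.87, 0.0264). The medians of the 4 lists were -0.08, 0.06, -0.49 and -0.04 in that order, beside -0.01 over all genes.

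Cell type markers shifted unevenly in the same comparison, again counted beside 3.71% of all genes called higher and 2.88% called lower. The summed neutrophil markers were 276, 1373 and 2024 CPM in IMQ_GW3965, all below the 9570, 10105 and 5765 CPM of IMQ_Veh, and 4 of 10 tested markers fell, among them the granulocyte growth factor receptor Csf3r by 2.22 ± 0.32 on the log2 scale (edgeR adjusted p = 0.00644). The summed macrophage and monocyte markers were 1131, 1488 and 1534 CPM in IMQ_GW3965, within the 767 to 1743 CPM of IMQ_Veh. Only Ccr2, the receptor that guides blood monocytes into tissue, fell among those 16, by 2.10 ± 0.29 (edgeR adjusted p = 0.006). Within IMQ_GW3965, replicate 3 was highest in summed neutrophil markers, Acod1 and Arg1. Replicate 1 was lowest in summed neutrophil markers, Arg1 and Chil3, while replicate 2 was lowest in Acod1. The order differed for Arg1 within IMQ_Veh. There, replicate 2 was highest in summed neutrophil markers (10105 CPM) and Acod1 (22.1 CPM). It was lowest in Arg1 (19.7 CPM) and in macrophage and monocyte markers (767 CPM). IMQ_Veh replicate 3 was lowest in summed neutrophil markers (5765 CPM) and highest in Arg1 (104 CPM). Single neutrophil markers did not all keep the order of the sum. In replicate order, Csf3r had 4.79, 10.7 and 8.11 CPM in IMQ_GW3965 and 39.5, 31.7 and 38.5 CPM in IMQ_Veh. Clec4e had 1.27, 1.97 and 3.38 CPM in IMQ_GW3965 and 9.65, 12.1 and 13 CPM in IMQ_Veh. Fpr1 had 0.859, 1.77 and 3.24 CPM in IMQ_GW3965 and 3.94, 3.34 and 2.89 CPM in IMQ_Veh. Skeletal muscle markers summed to 8296, 6422 and 5946 CPM in IMQ_GW3965, above the 1422, 1469 and 5451 CPM of IMQ_Veh, with 3 of 10 higher. Of 12 keratinocyte markers 3 rose, of 10 adipocyte markers 1 rose (list median log2 1.02), and of 12 fibroblast markers none was called. The part of these shifts in the Acod1 and Arg1 levels was not tested.

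**Figure D4:**
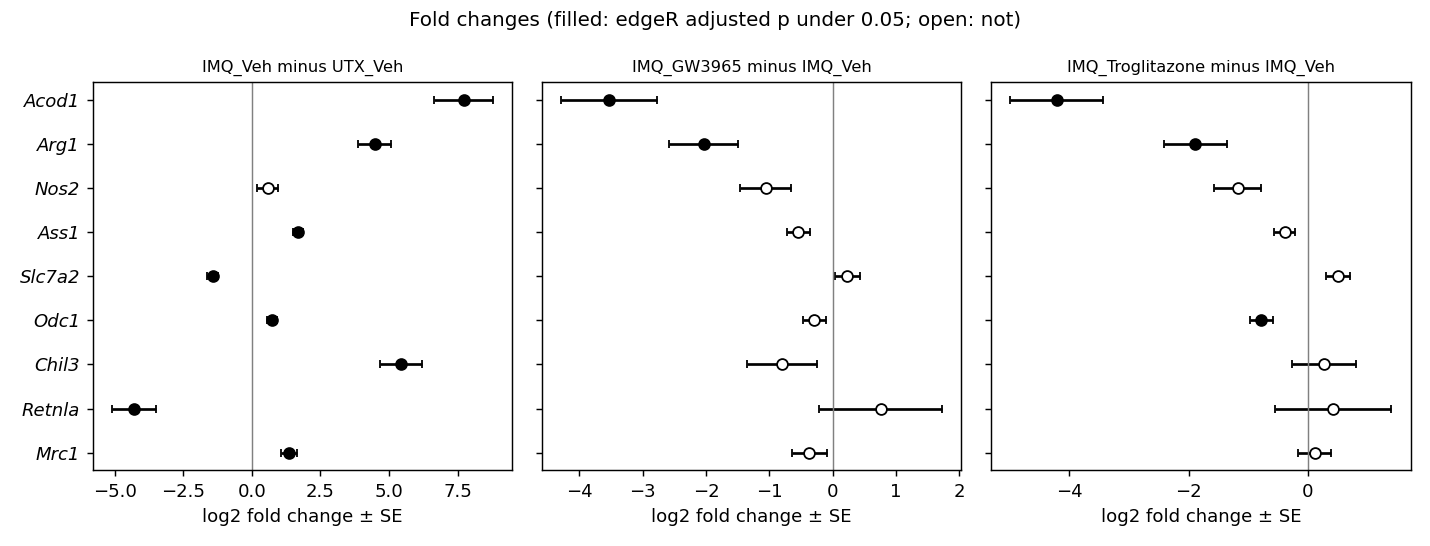
Log2 fold changes (x axes) of the 9 genes in IMQ_Veh against UTX_Veh, IMQ_GW3965 against IMQ_Veh and IMQ_Troglitazone against IMQ_Veh; points are edgeR estimates over 3 libraries a group, bars are ± SE, and filled points have an adjusted p under 0.05. The scales of the panels differ. Acod1 is the largest change in each panel, at 7.72, -3.53 and -4.21.

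The comparison of IMQ_Troglitazone with IMQ_Veh asks the same of the PPARγ agonist, and shares its IMQ_Veh libraries with the comparison of GW3965. Acod1, Arg1 and Odc1 fell and the other 6 genes did not pass. The 3 called genes, all lower, stand beside 9.34% of all genes called with 4.69% called higher and 4.65% lower. The median log2 difference was -0.39 over the 9 genes and -0.02 over all. The groups did not overlap for Acod1, Nos2 and Odc1, 3 of the 9, and for 25.8% of all genes (14.0% lower).

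Acod1 averaged 0.831 ± 1.05 CPM in IMQ_Troglitazone and 15.6 ± 5.65 CPM in IMQ_Veh, a fall of 4.21 ± 0.78 on the log2 scale (edgeR adjusted p = 0.0127; 95% interval -6.01 to -2.41). Among the 16 alternatives, the call was lost only in the fit of these 2 groups alone (-4.21, adjusted p = 0.0965). The value was -6.08 (0.0168) without IMQ_Troglitazone replicate 1. Without replicate 3 it was -3.68, where the adjusted p rounds to 0.05 and the call only just held. Arg1 averaged 19.7 ± 10.1 CPM in IMQ_Troglitazone and 73.3 ± 46.6 CPM in IMQ_Veh, a fall of 1.89 ± 0.53 (edgeR adjusted p = 0.0466), with overlapping groups and a call kept in 8 of 16 alternatives. It was lost without IMQ_Veh replicate 1 (-1.63, adjusted p = 0.157) or 3 (-1.55, 0.0549) and without IMQ_Troglitazone replicate 1 (-2.35, 0.0556), 2 (-1.59, 0.115) or 3 (-1.83, 0.163). The Arg1 call was also lost with the lane as a covariate (-1.78, 0.116). Odc1 averaged 110 ± 27.5 CPM in IMQ_Troglitazone and 188 ± 24.8 CPM in IMQ_Veh, a fall of 0.78 ± 0.19 (edgeR adjusted p = 0.0284). That call was lost without IMQ_Veh replicate 1 (-0.88, adjusted p = 0.0602) or 2 (-0.72, 0.0644) and without IMQ_Troglitazone replicate 1 (-0.78, 0.0697) or 3 (-0.60, 0.102).

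The remaining 6 genes did not pass. Nos2 was at 0.527 ± 0.154 CPM in IMQ_Troglitazone and 1.2 ± 0.421 CPM in IMQ_Veh (log2 -1.18 ± 0.40, edgeR adjusted p = 0.08), and Ass1 at 86.7 ± 10.7 and 114 ± 32.6 CPM in the same order (-0.39 ± 0.18, 0.185), with a call without IMQ_Veh replicate 3 (-0.61, 0.00664). Slc7a2 was at 15.5 ± 4.59 CPM in IMQ_Troglitazone and 10.9 ± 1.70 CPM in IMQ_Veh (0.50 ± 0.20, edgeR adjusted p = 0.119), also called without IMQ_Veh replicate 3 (0.64, 0.0429). Chil3, Retnla and Mrc1 had 95% intervals of -0.98 to 1.52, -1.84 to 2.68 and -0.54 to 0.76 on the log2 scale. Chil3 changed sign without IMQ_Troglitazone replicate 2 (-0.36, adjusted p = 0.7), Mrc1 and Retnla without IMQ_Veh replicate 2 (-0.15 and -0.23, adjusted p = 0.741 and 0.898).

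Counts in the lists and of the markers stand beside 4.69% of all genes called higher and 4.65% called lower. In the lists, 1 of 33 arginine genes rose and 1 fell under troglitazone, and none of 26 itaconate genes rose and 1 fell. Of 21 classical activation genes 5 fell with none higher. The medians of these lists were -0.19, -0.12 and -0.74, beside -0.02 over all genes. Il1b fell by 3.46 ± 0.66 (edgeR adjusted p = 0.0136; -3.49 with an adjusted p of 0.0512 without IMQ_Veh replicate 1, and -4.06 without IMQ_Troglitazone replicate 1) and Ptgs2 by 1.94 ± 0.35 (0.0126). Of 25 alternative activation genes 2 rose and 1 fell (median 0.14). Lyve1, the hyaluronan receptor of lymphatic vessels and of resident macrophages, rose by log2 1.1 ± 0.21 (edgeR adjusted p = 0.0137), a call lost without IMQ_Veh replicate 1 (1.13, 0.0575) or IMQ_Troglitazone replicate 3 (1.02, 0.0596). Chil4 was the gene that fell, by 5.24 ± 1.44 (adjusted p = 0.0435), a call kept in 6 of 14 alternatives and lost without IMQ_Veh replicate 1 (-5.64, 0.0779) or 3 (-2.92, 0.0999) and without IMQ_Troglitazone replicate 1 (-4.66, 0.12), 2 (-4.73, 0.104) or 3. Without replicate 3 the IMQ_Troglitazone group has no Chil4 count, and the fitted value of -9.61 (adjusted p = 0.107) depends on the prior count. The summed neutrophil markers were 1969, 1599 and 388 CPM in IMQ_Troglitazone, all below IMQ_Veh, with 4 of 10 tested markers lower, and the macrophage and monocyte sums, 1317 to 1603 CPM, lie within those of IMQ_Veh. Skeletal muscle markers summed to 5344, 4239 and 6336 CPM in IMQ_Troglitazone, overlapping IMQ_Veh, with none of 10 called; 2 of 12 keratinocyte markers rose and 1 fell, 1 of 10 adipocyte markers rose (list median log2 0.97), and none of 12 fibroblast markers was called. IMQ_Troglitazone replicate 3 was lowest in summed neutrophil markers, Acod1 and Chil3, and replicate 1 was highest in summed neutrophil markers, Acod1 and Arg1. Replicate 2 was lowest in Arg1 (10.5 CPM) and highest in Chil3 (33.6 CPM). Among single neutrophil markers, Csf3r was highest in replicate 1 (16.1 CPM) and Clec4e in replicate 2 (5.14 CPM). The part of these markers in the changes was not tested.

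A direct comparison of IMQ_GW3965 with IMQ_Troglitazone asks whether the agonists, given at different doses, left the 9 genes at different levels. No gene of the set was called (0 of 9 by edgeR, and 0 by DESeq2, which gave no adjusted p for Acod1, Nos2 and Retnla, beside 1.86% of all genes by edgeR), and 1, Odc1, had an unadjusted p under 0.05. Odc1 averaged 154 ± 30.2 CPM in IMQ_GW3965 and 110 ± 27.5 CPM in IMQ_Troglitazone (log2 0.49 ± 0.18, edgeR adjusted p = 0.214). The groups did not overlap for 1 of the 9, Mrc1, lower in IMQ_GW3965 at 125 ± 33.1 CPM than in IMQ_Troglitazone at 175 ± 6.29 CPM (-0.48 ± 0.28, adjusted p = 0.432), beside 25.3% of all genes (11.2% lower). The intervals leave room for sizeable differences: -1.26 to 2.62 for Acod1, -1.37 to 1.07 for Arg1, -2.34 to 0.20 for Chil3 and -0.57 to 0.27 for Ass1 on the log2 scale.

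Set against UTX_Veh, most of the 9 genes kept a difference under either agonist. In IMQ_GW3965, 7 of 9 were called, 5 higher and 2 lower, beside 50.2% of all genes called, 28.7% higher and 21.5% lower (4924 and 3682 genes with TMM, 4149 and 4633 with upper-quartile scaling). In IMQ_Troglitazone 7 of 9 were called, again 5 higher and 2 lower, beside 45.3% of all genes called, 26.5% higher and 18.8% lower (4546 and 3222 genes with TMM, 3532 and 4371 with upper-quartile scaling). These comparisons share the UTX_Veh libraries. Nos2 and Odc1 were the genes not called in either. The groups did not overlap for 8 of 9 genes under GW3965 and 7 of 9 under troglitazone, beside 66.6% of all genes (34.9% higher and 31.8% lower) and 62.5% (32.7% higher and 29.8% lower).

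Within that, the sizes differed by gene. Chil3 was at log2 4.63 ± 0.76 in IMQ_GW3965 and 5.70 ± 0.76 in IMQ_Troglitazone above UTX_Veh (edgeR adjusted p = 0.000441 and 0.000166; 5.08 without IMQ_Troglitazone replicate 2), Arg1 at 2.44 ± 0.59 and 2.59 ± 0.59 (0.00502 and 0.00434), and Ass1 at 1.15 ± 0.19 and 1.3 ± 0.19 (0.000421 and 0.00029). Mrc1 was higher by 0.98 ± 0.28 in IMQ_GW3965 (edgeR adjusted p = 0.0127) and by 1.46 ± 0.28 in IMQ_Troglitazone (0.00182), with the IMQ_GW3965 call lost without IMQ_GW3965 replicate 2 (0.86, 0.0522) or 3 (0.81, 0.0584) and without UTX_Veh replicate 2 (0.85, 0.0515). Slc7a2 was lower by log2 -1.19 ± 0.19 and -0.91 ± 0.19 (edgeR adjusted p = 0.000435 and 0.0028), and Retnla by -3.54 ± 0.76 and -3.89 ± 0.77 (0.00249 and 0.00202; -4.44 without IMQ_GW3965 replicate 1).

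Acod1 remained above UTX_Veh by log2 4.18 ± 1.24 in IMQ_GW3965 and 3.51 ± 1.29 in IMQ_Troglitazone (edgeR adjusted p = 0.0151 and 0.0439), with 9 to 39 and 3 to 48 counts per library. The GW3965 call was lost without IMQ_GW3965 replicate 3 (3.4, adjusted p = 0.0661) and without UTX_Veh replicate 3 (3.66, 0.0514). The troglitazone call was lost without IMQ_Troglitazone replicate 1 (1.64, 0.36), without UTX_Veh replicate 2 (2.97, 0.116) or 3 (2.99, 0.12), with upper-quartile scaling (3.39, 0.0501) and with the replicate number as a block (3.43, 0.0659). Without UTX_Veh replicate 1 the fitted values, 7.85 and 7.18 (adjusted p = 0.0214 and 0.0465), are set against a group at 0. Odc1 was at 0.45 ± 0.18 in IMQ_GW3965 (edgeR adjusted p = 0.0617) and -0.04 ± 0.18 in IMQ_Troglitazone (0.873).

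The genes whose pattern over the 12 libraries was most like that of 8 of the 9 were found by the root-mean-square difference of centred log2(CPM + 0.5) over 13679 genes; a smaller value is a closer pattern, and the samples share group structure, so these are descriptions. Acod1 was closest to the neutrophil chemokine Cxcl3 (0.32, where the spread of Acod1 about its own mean is 1.895), followed by the cytokine Osm (0.595). Cxcl3 had 1.63, 0.936 and 3.18 CPM in IMQ_GW3965, 2.58, 0.97 and 0.246 CPM in IMQ_Troglitazone, 12.3, 18.8 and 10.8 CPM in IMQ_Veh, against 0.0786, 0 and 0 CPM in UTX_Veh. Its libraries fall in the same order as those of Acod1 within IMQ_GW3965 and IMQ_Troglitazone, and IMQ_Veh replicate 2 is the highest for both genes. Arg1 was closest to Tmprss11a, a transmembrane serine protease gene (0.358, own spread 1.565), and Pitx1, a homeobox factor gene (0.478). Tmprss11a shows the same low IMQ_Veh replicate 2, at 17.4, 5.47 and 17.4 CPM in IMQ_Veh.

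Ass1 was closest to Cenpn, a centromere protein gene, and Rrm1, a subunit of ribonucleotide reductase (0.099 and 0.133, own spread 0.654). Rrm1 had 163, 153 and 114 CPM in IMQ_Veh, against 49.8, 57.1 and 47.3 CPM in UTX_Veh, with replicate 3 the lowest of IMQ_Veh as for Ass1. Slc7a2 was closest to Crim1 and Bach2 (0.102 and 0.114, own spread 0.562). Chil3 was closest to Chil1, another chitinase-like gene, and Has3, a hyaluronan synthase gene (0.465 and 0.469, own spread 1.873). Retnla was closest to Skint7, an epidermal gene of the Skint family, and Pdzk1 (0.459 and 0.514, own spread 1.282). Mrc1 was closest to Cd300ld3 and Bst1 (0.112 and 0.183, own spread 0.662), and Cd300ld3 at 21, 9.65 and 21.8 CPM in IMQ_Veh repeats the low replicate 2 of Mrc1. For Nos2, with its low counts, the nearest genes were Egr1 and P2ry10 (0.182 and 0.187, own spread 0.373).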

How the data were processed

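Bulk RNA from mouse ear skin was prepared with the mirVana kit, DNase and a TruSeq stranded mRNA library kit, per the labels' protocols. Per the submitters' processing notes, the tools were RSEM 1.3.3 and STAR 2.7.3a on GRCm38 (mm10), with Trim Galore and FastQC also listed. The deposited tables of the authors hold, per gene and library, RSEM expected counts, not scaled for depth, and TPM, scaled by RSEM for effective length and depth. Not given in the sources used here are the annotation release and strand setting; of 55416 identifiers, 52135 matched GENCODE M21 and 3281 did not.

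Whole-number rounded expected counts were fitted in edgeR 4.0.16 (R 4.3.3; quasi-likelihood test, TMM scaling, filterByExpr, 1 fit over 12 libraries with 8 residual degrees of freedom), with p-values adjusted by Benjamini-Hochberg over all 17130 genes tested. A gene was called at an adjusted p under 0.05, and every adjusted p in the text is from that edgeR fit unless DESeq2 (1.42.0) is named. Depth was 18242074 to 25641602 counts per library; floors of 3 counts cover counting error only. Expression was also compared within libraries as ratios of TPM.

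The 9 genes and the gene lists were chosen with earlier results of these data known. Named beside the 9 were paralogs and partner enzymes; in each list and comparison up to 3 called genes with the largest change among those with a mean of at least 1 CPM, of which the text gives a selection; and the 2 genes most like each of the 9 in pattern, which for Odc1 are not reported here. The labels state no pairing by replicate number. Correlations of deviations between same-numbered libraries of different groups were -0.221 to 0.312, above 0.1 in 4 of 18 pairs. Between UTX_Veh and IMQ_Veh they were 0.066, 0.225 and 0.312, against -0.269 to 0.043 for libraries of different number. At 3 libraries a group this check cannot settle whether libraries are paired, and the main fit models no pairing. Libraries within each group differed by more than sampling noise. The edgeR step was tested on simulated data. Alternatives were other scalings, filters, DESeq2, the compared groups alone, a replicate block and the lane field of the file names. Others left out libraries, or removed the 1 feature that dominates IMQ_GW3965 replicate 3 together with the gene Lars2.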

Additional observations from a re-analysis of the deposited data

How the results depend on the processing

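For the comparison of IMQ_Veh with UTX_Veh, 8 of the 9 genes were called under all 16 alternatives. The agonist comparisons rest on fewer calls and moved more. Genes called between IMQ_GW3965 and IMQ_Veh were 1129 with edgeR, 2222 with DESeq2, 102 in a fit of these groups alone, 549 with the lane as a covariate, and 3041 without IMQ_Veh replicate 3 and IMQ_GW3965 replicate 3 together; leaving out 1 library gave 105 (without IMQ_GW3965 replicate 1) to 3645 (without IMQ_Veh replicate 3). Between IMQ_Troglitazone and IMQ_Veh they were 1600, with 2590 by DESeq2, 0 in a fit of these groups alone, 1009 with the lane and 4166 without both replicates 3; leaving out 1 library gave 162 (without IMQ_Veh replicate 1) to 4460 (without IMQ_Veh replicate 3). Between IMQ_GW3965 and IMQ_Troglitazone they were 319, with 942 by DESeq2, 140 with no filter, 9 in a fit of these groups alone, and 0 without both replicates 3; leaving out 1 library gave 0 to 73. Of the 9 genes, 2 were called between IMQ_GW3965 and IMQ_Veh, 0 in a fit of these groups alone, 1 with the lane, and 0 to 3 with 1 library left out; 3 were called between IMQ_Troglitazone and IMQ_Veh, 0 in a fit of these groups alone, and 1 to 4 with 1 library left out. Fits of the compared groups alone or with libraries left out held fewer libraries, while the DESeq2 and lane fits held all 12. The cause of these shifts was not tested.

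The labels state no pairing by replicate number. With that number as a block, 1 of the 9 genes was called between IMQ_GW3965 and IMQ_Veh (Acod1). Over all genes, 131 were called between IMQ_GW3965 and IMQ_Troglitazone and 1426 between IMQ_GW3965 and IMQ_Veh. Between IMQ_Troglitazone and IMQ_Veh 1715 were called, and 10722 between IMQ_Veh and UTX_Veh.

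Changes of sign occurred only in values that were not called. Between IMQ_GW3965 and IMQ_Troglitazone, with 1 library left out, Acod1 ran from -0.10 to 2.55, Arg1 from -0.45 to 0.31, Nos2 from -0.12 to 0.46 and Retnla from -0.56 to 0.70, and without both replicates 3 Acod1 was at -0.10 and Nos2 at -0.08. Between IMQ_Troglitazone and IMQ_Veh, Chil3 ran from -0.36 to 0.72, Mrc1 from -0.15 to 0.40 and Retnla from -0.23 to 1.47. Retnla ran from -0.14 to 1.82 between IMQ_GW3965 and IMQ_Veh, and Odc1 from -0.22 to 0.14 between IMQ_Troglitazone and UTX_Veh. Upper-quartile scaling moved the median of all genes by -0.122, -0.105 and -0.119 in the comparisons of IMQ_Veh, IMQ_GW3965 and IMQ_Troglitazone with UTX_Veh, and turned no gene of the 9. At 5 to 32 counts for Nos2 and 0 to 5 for Acod1 in UTX_Veh, depth limits what those genes can show; Nos2 had no value under the stricter filter. In fits of the compared groups alone, Acod1 had none against UTX_Veh under either agonist, nor Retnla among the imiquimod groups, where the filter left them out.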
